A study of Mus musculus with 6 samples.

Results

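The sodium leak channel complex comprises the 4 genes Nalcn, Fam155a, Unc79 and Unc80, and each was read by 1 probe set of the array, so 4 of the 22180 genes tested are described here. The genes were taken by name from the known make-up of the complex, and the group was chosen by a measured value, the difference of Unc80 between knockdown and control, which was among the largest rises of the series. The change of Unc80 is therefore a description and carries no test. The other 3 genes were brought in by their role, though with earlier results of these data known. The knockdown group was 3 samples that received a construct against Diras2 by AAV1/2, an adeno-associated virus, and the control group 3 samples that received a scrambled sequence by the same route. All were mixed primary cells from hippocampi of day 18 mouse embryos, infected 7 days after seeding and harvested 7 days after infection, and strain, sex and genotype are not given in the sources used here. Diras2 is a small GTPase of the Ras family, and the design text asks which transcripts change when it is reduced. The labels name no other knockdown construct, so effects of less Diras2 and other effects of that construct cannot be told apart. The labels say biological replicate but name no separate culture, animal or litter, so a p-value here reflects only how far these samples scatter, and some of that scatter may be technical.

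Nalcn is the pore of a sodium channel that stays open near the resting potential and passes a small steady inward current. That current brings neurons closer to firing threshold and sets the pace of spontaneous activity. The pore does not work alone: Fam155a (also written Nalf1) sits on its outer face and helps it to the cell surface, while Unc79 and Unc80 are very large cytoplasmic proteins that bind each other and the pore. Unc80 also links the channel to Src-family kinases and is needed for its modulation by peptides such as substance P. In humans, loss of UNC80 or NALCN causes severe developmental disorders with low muscle tone.

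Values are log2 expression levels, so a difference of 1 is a doubling. Array medians lay between 4.03 and 4.11. Diras2 itself had 7.17, 6.23 and 6.08 in the knockdown arrays, against 10.17, 10.17 and 9.76 in the control arrays. The difference was -3.54 (SE 0.27), with an adjusted p of 0.00063 by limma and an exact two-sided permutation p of 0.1, the smallest that 3 against 3 arrays can give. Of all genes tested, 4.17% were called higher in knockdown cells and 3.64% lower at an adjusted p under 0.05 by limma, together 7.80%. The cultures hold several cell types, and in bulk RNA fewer cells of a type and less RNA per cell cannot be told apart. The neuron markers, 7 of 7 measured, averaged between 11.08 and 11.37 on the knockdown arrays and between 11.11 and 11.54 on the control arrays, far above the array medians. Of these, Snap25 was lower by limma (difference -0.51, adjusted p 0.0471), a call lost in 8 of 14 alternatives, and 6 did not pass. Differences ran from -0.58 for Syt1 to 0.39 for Tubb3, with a median of -0.02.

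Unc80 was the member that stood apart. Its log2 level was 8.19, 7.91 and 8.04 in the knockdown arrays, against 6.16, 5.99 and 6.05 in the control arrays. The groups did not overlap, and the lowest knockdown array lay well above the highest control array; over all genes the groups were apart in 25.5%, with knockdown higher in 13.4% and lower in 12.1%. The group means were 8.05 ± 0.14 in knockdown cells and 6.07 ± 0.09 in control cells (SD, n = 3 each), a difference of 1.98 (SE 0.11) or 3.94-fold. Only 11 of the 22180 genes tested had a larger rise. Taken by replicate number, which the labels do not state to be a pairing, knockdown minus control was 2.03, 1.92 and 1.99. Their closeness is no test, since the gene was chosen by this difference. The control level lay above the array medians, and whether it was above background was not tested. The array has no other named probe set for this gene, so parts of the transcript cannot be compared.

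Nalcn, the pore, did not differ between the groups beyond the spread of the arrays. Its level was 8.61, 8.31 and 8.51 in the knockdown arrays, against 8.60, 8.28 and 8.43 in the control arrays. The groups overlapped. The difference was 0.04 (SE 0.13), with an adjusted p of 0.904 by limma and an exact two-sided permutation p of 0.7. The 95% interval of the difference ran from -0.25 to 0.33, with an upper end of 1.26-fold.

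Fam155a, the surface subunit that helps the pore leave the endoplasmic reticulum, was the most variable member among replicates. It had 9.81, 9.64 and 9.34 in the knockdown arrays, against 9.91, 9.52 and 9.11 in the control arrays. The control arrays spanned the knockdown arrays entirely. At 0.08 (SE 0.21) the difference did not pass, with limma's adjusted p at 0.878 and an exact two-sided permutation p of 0.8. Its 95% interval, from -0.40 to 0.56, is the widest of the 3 partners and reaches 1.48-fold.

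Unc79, the direct binding partner of Unc80, showed no difference beyond the spread of the arrays. It had 8.12, 7.94 and 7.97 in the knockdown arrays, against 8.18, 8.04 and 8.0 in the control arrays. The groups overlapped, and the difference of -0.06 (SE 0.10) had an adjusted p of 0.805 by limma and an exact two-sided permutation p of 0.5. Its 95% interval ran from -0.30 to 0.17. The upper bounds of the 3 partners were 1.13-fold for Unc79, 1.26-fold for Nalcn and 1.48-fold for Fam155a. That they lie below the 3.94-fold of Unc80 is no test, since the group was chosen by that rise. Of the 3 partners 0 were called by limma, against 7.80% of all genes tested, and 0 had an unadjusted p under 0.05. With 3 genes, a count of 0 does not set the partners apart from that share. By absolute difference 15.0% of all genes moved less than Nalcn, 24.3% less than Unc79 and 32.0% less than Fam155a.

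**Figure D1:**
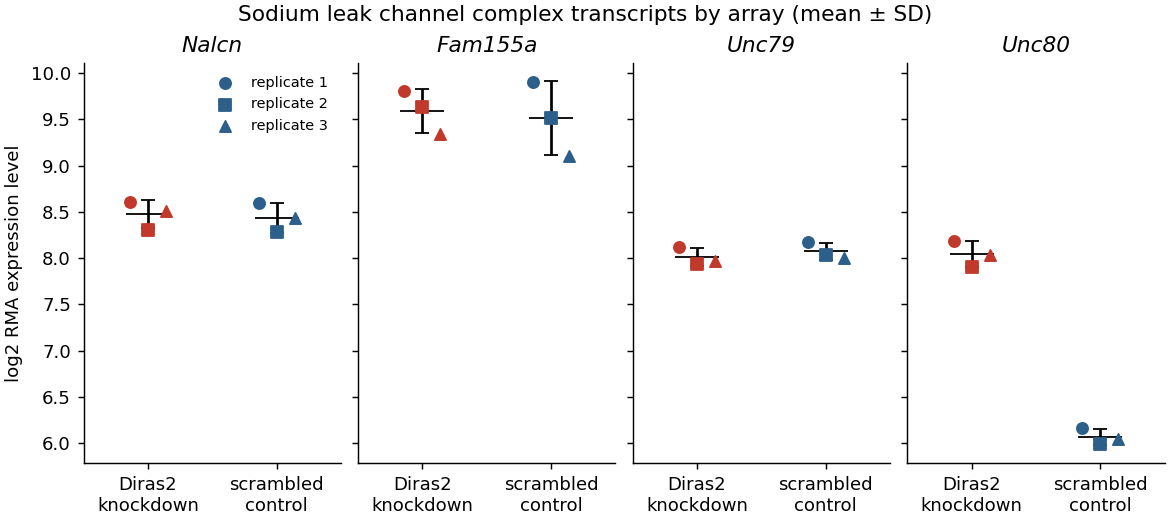
The log2 RMA expression level (vertical axis) of the 4 complex genes is plotted for 3 Diras2 knockdown arrays (red) and 3 scrambled control arrays (blue), with the marker shape giving the replicate number and black lines the mean ± SD. Unc80 separates into 2 levels, near 8.05 in knockdown and 6.07 in control arrays, while the points of the other 3 genes overlap. Heights are comparable within a gene and not between genes.

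The sequences before the transcription starts are shown for Unc80 and for the partners with an entry in the RefSeq promoter table (GRCm38.p6), so that the gene whose level changed can be set beside those that did not pass. Each run holds the 250 bases upstream of the annotated start, 5′ to 3′ on the gene's strand, with CpG dinucleotides in capitals. The windows are chr1:66467684-66467933 on the plus strand for Unc80, chr12:102948609-102948858 on the plus strand for Unc79 and chr14:123627145-123627394 on the minus strand for Nalcn.
Unc80: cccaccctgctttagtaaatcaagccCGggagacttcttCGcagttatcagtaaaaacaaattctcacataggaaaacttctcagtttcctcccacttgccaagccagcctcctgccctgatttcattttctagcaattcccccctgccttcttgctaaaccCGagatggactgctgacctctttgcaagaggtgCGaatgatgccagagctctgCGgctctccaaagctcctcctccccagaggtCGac
Unc79: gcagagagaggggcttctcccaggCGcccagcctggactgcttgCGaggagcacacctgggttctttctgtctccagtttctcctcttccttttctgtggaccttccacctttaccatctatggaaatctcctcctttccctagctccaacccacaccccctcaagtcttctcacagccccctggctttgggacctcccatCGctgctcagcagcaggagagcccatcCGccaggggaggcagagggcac
Nalcn: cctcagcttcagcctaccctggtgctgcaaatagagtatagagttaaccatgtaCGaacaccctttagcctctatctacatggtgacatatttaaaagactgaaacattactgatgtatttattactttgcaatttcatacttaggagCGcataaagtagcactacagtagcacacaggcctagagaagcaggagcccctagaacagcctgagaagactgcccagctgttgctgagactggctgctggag
The Unc80 window has 6 CpG dinucleotides and a GC content of 51.2%, against medians of 6 and 52.4% over all 32817 windows of this kind. Unc79 has 4 CpG and 59.6% GC, and Nalcn 2 CpG and 45.2% GC. A search on both strands for 6 short motifs found none of them in any of these 3 windows. The motifs were the TATA box TATAAA (in 12.4% of all windows), the CCAAT box CCAAT (33.8%), the GC box GGGCGG (32.7%), the core of the cyclic AMP response element TGACG (17.7%), the E-box CACGTG (6.02%) and the AP-1 motif TGANTCA (6.75%).

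On the chromosome, Unc80 lies between Map2 and Rpe among the genes tested. Map2, a microtubule protein of dendrites, had 11.21, 11.07 and 11.17 in the knockdown arrays, against 11.28, 11.21 and 11.25 in the control arrays, and its difference of -0.10 (SE 0.09) did not pass (limma, adjusted p 0.647). Rpe, an epimerase of the pentose phosphate pathway, had 7.87, 8.04 and 8.14 in the knockdown arrays, against 7.30, 7.25 and 7.18 in the control arrays. It rose 1.71-fold, by 0.77 on the log2 scale (SE 0.11; limma, adjusted p 0.0046). The groups of Rpe did not overlap, and all 14 alternatives kept its call, with differences between 0.70 and 0.85. For the 6 genes beside the other members, Cox8c, Prima1, AA536875, Itgbl1, 4933430N04Rik and Lig4, differences ran from -0.22 to 0.16 and 0 were called by limma or had an unadjusted p under 0.05. The genes beside the members were thus called in 1 of 8 cases, against 7.80% of all genes.

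**Figure D2:**
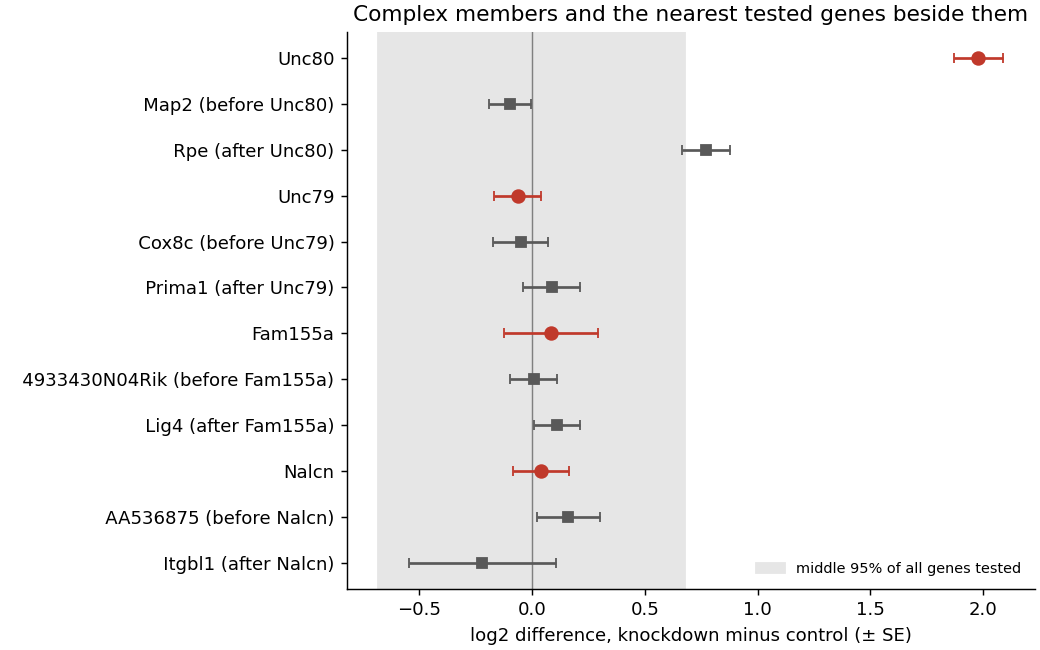
The log2 difference, knockdown minus control, with its SE (horizontal axis) is shown for the 4 complex genes (red circles) and for the nearest tested gene on either side of each (grey squares). The grey band holds the middle 95% of all genes tested, from -0.68 to 0.68. Unc80 at 1.98 and its neighbour Rpe at 0.77 lie outside the band, and the other 10 genes lie inside it.

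The genes with the profile most like Unc80 were sought by the root mean square distance between log2 profiles over the 6 arrays, each centred on the gene's own mean. The nearest were Ap1ar at a distance of 0.107, Lonrf2 at 0.133, Tbc1d14 at 0.139, Clasp2 at 0.154 and Prkg1 at 0.157. Ap1ar is an adaptor of vesicle transport, Lonrf2 a ubiquitin ligase, Tbc1d14 a regulator of autophagosome formation, Clasp2 a protein of growing microtubule ends and Prkg1 the cyclic GMP-dependent kinase. Ap1ar had 10.88, 10.72 and 10.59 in the knockdown arrays, against 8.93, 8.83 and 8.65 in the control arrays, a difference of 1.93. The differences of the 5 genes ran from 1.69 for Clasp2 to 2.18 for Prkg1. Their Pearson correlations with Unc80 over the 6 arrays were 0.994 to 0.999, which mostly restate the gap between the groups. The partners lay farther away, at 0.971 for Nalcn, 0.978 for Fam155a and 1.02 for Unc79. By distance they ranked 8093, 8720 and 12653 among all genes tested. These distances, too, mostly restate the gap of Unc80 between the groups, by which it was chosen.

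**Figure D3:**
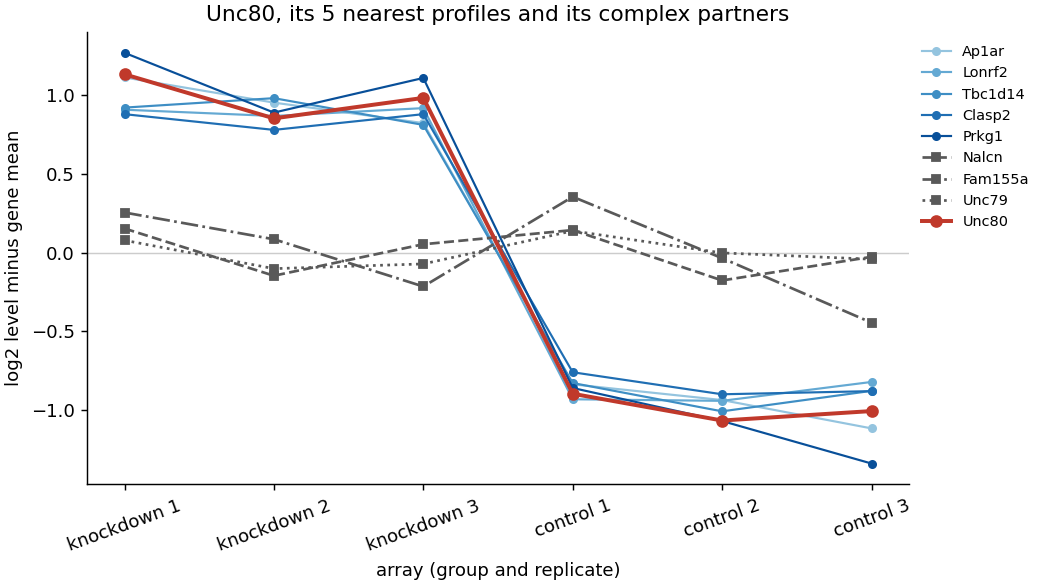
The log2 level minus the gene's mean over 6 arrays (vertical axis) is drawn for each array (horizontal axis) for Unc80 (red), its 5 nearest genes (blue) and its 3 complex partners (grey, broken lines). The blue lines lie with Unc80, near 1 in the knockdown arrays and near -1 in the control arrays, and the grey lines stay within 0.45 of their mean.

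Genes that act on the channel or bear on the resting potential, and voltage-gated channels that share its fold, were then counted from 5 lists. In these lists 67 of 78 genes were measured. Of these 5 were called higher and 4 lower, together 13.4%, against 7.80% of all genes tested. The median difference over the lists was 0.02, against 0.00 over all genes. With the replicate number as a block 11 were called higher and 6 lower, 25.4% of the lists against 11.7% of all genes. Leaving out control replicate 2 gave 2 higher and 0 lower, and the share of the lists, 2.99%, was then no larger than the 3.11% of all genes. Leaving out control replicate 1 gave 8 and 3, or 16.4% against 6.70%. When knockdown replicate 1, 2 or 3 was left out, 4, 3 and 4 were called higher and 1, 0 and 0 lower, shares of 7.46%, 4.48% and 5.97% against 5.70%, 3.37% and 3.88% of all genes. A fit that included the RNA integrity number gave 2 and 1, or 4.48% against 3.42%. Among genes above the median level, 8 and 4 of 47 tested list members were called, or 25.5% against 19.6% of all such genes. At an unadjusted p under 0.05, 5 to 8 members were lower in the 3 settings with 0 called. The share of all genes at that unadjusted threshold is not given here, so counts at it have no background. For the calls of each list below, the background is the 7.80% of all genes.

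Among 14 measured regulators and binding partners of the complex, 1 rose, 2 fell and 11 did not pass, with a median difference of -0.02. Vamp2, the vesicle SNARE of synaptic release, had 9.64, 9.73 and 9.64 in the knockdown arrays, against 8.90, 8.95 and 8.87 in the control arrays. It rose by 0.76 (SE 0.09), with an adjusted p of 0.0029 by limma, and kept its call in all 14 alternatives. Snap25, the SNARE of the plasma membrane, had a difference of -0.51 (SE 0.13) and an adjusted p of 0.0471, and lost its call in 8 of 14 alternatives (adjusted p from 0.0712 to 0.168): without each array in turn except control replicate 3, under both rescalings and with the RNA integrity number in the fit. Tac1, the precursor of substance P, had 5.64, 6.52 and 6.20 in the knockdown arrays, against 7.17, 8.13 and 8.99 in the control arrays, and an adjusted p of 0.0277. That call was lost without any 1 of the knockdown arrays, without control replicate 2 and with the RNA integrity number (0.0663 to 0.118). Its receptor Tacr1 lay near the array medians, at 3.81 ± 0.18 in knockdown and 4.22 ± 0.07 in control cells (SD, n = 3 each). The Tacr1 groups did not overlap, and the difference of -0.41 had an adjusted p of 0.0760 by limma (0.0428 with the replicate block). The other receptors of this list, Ntsr1, Chrm3 and Casr, went the other way, by 0.68, 0.61 and 0.04 (limma, adjusted p 0.176, 0.195 and 0.928). Ntsr1 and Chrm3 were called higher with the replicate block. Src and Fyn, the kinases that act on the channel after peptide binding, differed by -0.07 and -0.09 and did not pass. Gna11, a G protein alpha subunit, differed by 0.43 with an adjusted p of 0.0629, and passed in 4 alternatives, among them the replicate block and the fit without control replicate 1 (0.0332 to 0.0462). Tmem28, the entry for the relative of Fam155a also called Fam155b, had a difference of -0.32 and overlapping groups.

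Of 18 measured voltage-gated sodium and calcium channels that share the fold of Nalcn, 1 rose, 1 fell and 16 did not pass, with a median of 0.13. Those that did not pass include Scn7a, Scn9a, Scn10a, Scn11a, Cacna1f and Cacna1s, with group means of 3.05 to 3.94, below the array medians. Cacna1d, a calcium channel that opens at low voltage, had 7.20, 6.83 and 6.85 in the knockdown arrays, against 6.30, 5.66 and 5.72 in the control arrays. Its rise of 1.07 (SE 0.19) had an adjusted p of 0.0132 by limma, which was 0.0639 without control replicate 2 and 0.0671 when the RNA integrity number entered the fit. Scn3a, the sodium channel prominent in embryonic brain, had 7.40, 7.29 and 7.27 in the knockdown arrays, against 8.32, 8.32 and 7.82 in the control arrays, all of them higher. It fell by 0.83 (SE 0.15) on the log2 scale, with an adjusted p of 0.0140, lost without knockdown replicate 2 or 3 or control replicate 2 (0.0608 to 0.0686). Scn2a, a main sodium channel of axons, differed by 0.45 (adjusted p 0.0622) and Cacna1h, a low-threshold calcium channel, by 0.62 (adjusted p 0.10). Without control replicate 1 both passed (0.0364 and 0.0351). Scn2a also passed among genes above the median level (0.0357) and with an intensity trend in the variance prior (0.0337), and Cacna1h with the replicate block (0.0220).

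Potassium channels carry the outward current that opposes the sodium leak. Of 13 measured Kcnk leak channels 1 rose, 0 fell and 12 did not pass by limma, with a median of -0.01 and 6 differences above 0. At an unadjusted p under 0.05 there were 3 higher and 0 lower, without a share of all genes to set beside them. Kcnk2, a leak channel opened by stretch and lipids, had 7.49, 7.75 and 7.29 in the knockdown arrays, against 6.79, 6.84 and 6.59 in the control arrays. Its rise of 0.77 (SE 0.14) had an adjusted p of 0.0145, and it missed the threshold (0.0505 to 0.0734) when knockdown replicate 2 or control replicate 2 was left out or the RNA integrity number entered the fit. Kcnk12 differed by 0.48 with non-overlapping groups and an adjusted p of 0.0710 (0.0435 with the replicate block). Kcnk9 differed by -0.58 with overlapping groups (limma, adjusted p 0.417) and was called lower with the replicate block. Kcnk5, Kcnk6, Kcnk7, Kcnk13, Kcnk16 and Kcnk18 had group means of 3.49 to 4.22, near or below the array medians. Whether they were above background was not tested. Of 13 measured inward rectifier and HCN channels 1 rose, 1 fell and 11 did not pass. Kcnj3, a G protein-gated potassium channel subunit of neurons, had 8.32, 8.38 and 8.41 in the knockdown arrays, against 7.04, 7.18 and 7.40 in the control arrays. It rose by 1.16 (SE 0.12), with an adjusted p of 0.00138 by limma, and kept its call in all 14 alternatives. A second, dim probe set of Kcnj3 showed a difference of -0.03, and the mean of both gave 0.56. Kcnj10, the potassium channel of astrocytes and oligodendrocytes, fell by 0.91 (SE 0.18) (limma, adjusted p 0.0226). The call was lost without any 1 of the knockdown arrays, without control replicate 2 and with the RNA integrity number (0.0604 to 0.0920).

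The sodium pump clears the sodium that leak channels let in. Of its 9 measured subunits and modulators 1 rose, 0 fell and 8 did not pass by limma (1 higher and 1 lower at an unadjusted p under 0.05). Atp1b1, a beta subunit, had 12.62, 12.66 and 12.62 in the knockdown arrays, against 12.21, 12.12 and 12.20 in the control arrays. Its rise of 0.46 (SE 0.09) had an adjusted p of 0.0210, lost in the same 5 alternatives as that of Kcnj10 (0.0541 to 0.0970).

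**Figure D4:**
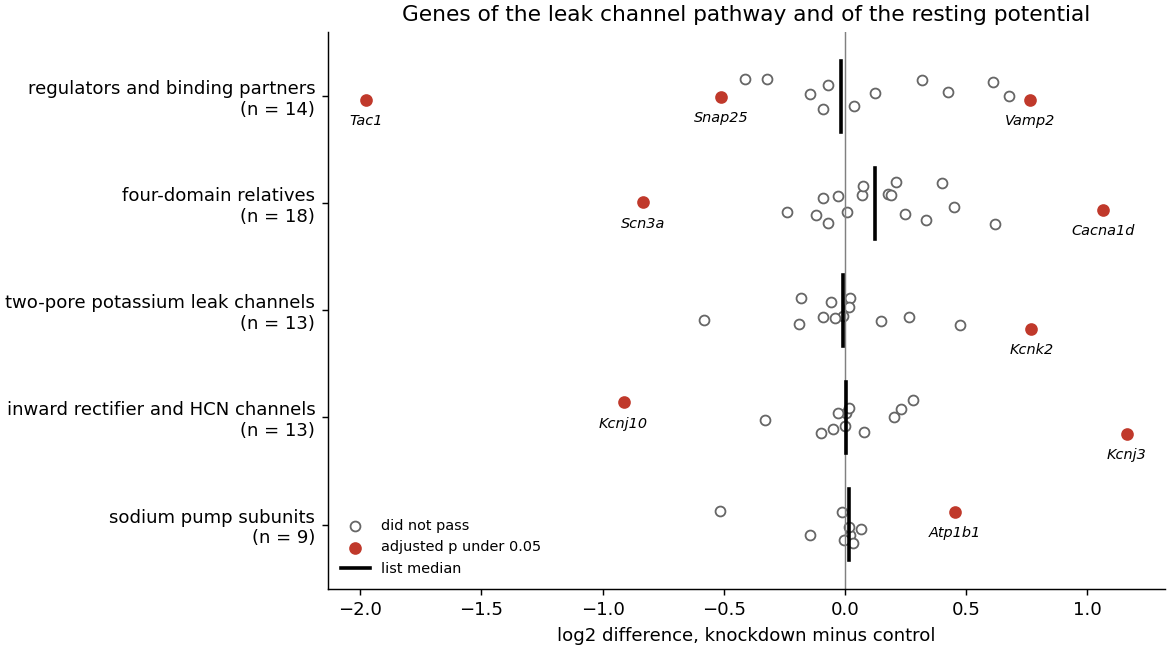
Each circle is the log2 difference, knockdown minus control (horizontal axis), of a measured gene of the 5 lists (rows); filled red circles, named, had an adjusted p under 0.05 and black bars are list medians. The 9 called genes lie on both sides of 0, and the list medians lie between -0.02 and 0.13.

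Markers of the cell types that such a culture can hold were read on the same arrays. The excitatory neuron markers, 6 of 6 measured, averaged 8.88 to 9.53 on the knockdown arrays and 8.67 to 9.38 on the control arrays, and 0 were called by limma or had an unadjusted p under 0.05. The inhibitory neuron markers, 5 of 6 measured, averaged 7.68 to 8.15 on the knockdown arrays and 7.99 to 8.58 on the control arrays, with Lhx6 lower by limma (difference -1.20, adjusted p 0.0063). The other 4 differed by -0.60 to 0.11 and did not pass. At an unadjusted p under 0.05 by limma, 2 of the 5 were lower, Lhx6 and Dlx2. The list median was -0.45, and 1 of the 5 differences was above 0. Oligodendrocyte precursor markers, 5 of 5 measured, averaged 6.20 to 7.33 on the knockdown arrays and 5.91 to 6.35 on the control arrays, with Pdgfra higher by limma (difference 2.80, adjusted p 0.0104, 0.0575 without control replicate 2 and 0.0514 with the RNA integrity number in the fit). The other 4 precursor markers, Cspg4, Olig1, Olig2 and Sox10, had overlapping groups and differences from -0.19 to 0.52 that did not pass, so the gap between the list averages rests mostly on Pdgfra. The part of these differences in the values of Unc80 was not tested. Astrocyte markers averaged 7.74 to 8.17 on the knockdown arrays and 7.92 to 8.22 on the control arrays, so these ranges overlapped. Microglial, endothelial and fibroblast lists had 0 members called by limma and 2, 0 and 1 with an unadjusted p under 0.05, with list medians of -0.04, 0.04 and 0.13.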

How the data were processed

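Total RNA of 6 samples (100 ng each) was amplified by a whole-transcript method and hybridised to Affymetrix arrays, per the labels' protocols. The authors deposited log2 values of each probe set; the submitters' processing notes name RMA and Affymetrix Expression Console (version 1.2.1.20). RMA puts all arrays on 1 distribution, which hides a change shared by most genes, and compresses weak signals. Probe-level data and detection calls were not used here. Precision is limited by the number of arrays.

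Of 41345 probe sets, 23521 carry 1 gene symbol in the platform annotation, 1814 several and 16010 none. The brightest probe set of each gene was used, giving 22180 genes, of which 21991 were matched by Entrez number to RefSeq genes (GRCm38.p6). Knockdown was compared with control by limma 3.58.1 (lmFit, eBayes, R 4.3.3) with Benjamini-Hochberg adjustment over all genes, and genes with an adjusted p under 0.05 were called. The fit was run on simulated data with independent samples, to check that mean estimates lay near the differences put in. That run set no limit on false calls and did not simulate pairing. Exact permutation tests were two-sided.

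The members and lists were chosen with earlier results of these data known. Named genes were Diras2, the members, the called genes and up to 4 with the smallest p in each list, the 5 profiles nearest to Unc80, the genes beside the members and markers. Src, Fyn, Tacr1 and Tmem28 were named for their role after their values were seen. Ntsr1, Chrm3, Casr and Kcnk9 were named, also after that, to show members of the same lists that went the other way. Some list members were named for their low level. Deviations from group means correlated at 0.427, 0.121 and 0.374 between same-numbered samples, above a bound of 0.1 in every pair, so the numbers may pair the samples, though the labels do not state it. Every p-value, SE and interval in the results comes from the fit without this pairing unless the replicate block is named. The alternatives were the replicate number as a block, leaving out each array, rescaling, a filter on dim genes, other variance priors, the RNA integrity number in the fit, and averaging the probe sets of each gene.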

Additional observations from a re-analysis of the deposited data

How the results depend on the processing

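The Unc80 difference, by which the group was chosen, ran from 1.91 to 2.05 when each array was left out. It was 1.98 to 2.01 under the rescalings and with the RNA integrity number. The replicate block, the filter on dim genes and the variance priors cannot move a difference of means. Averaging probe sets cannot either, since Unc80 has 1. The Diras2 difference stayed between -3.88 and -3.33 over 14 alternatives and kept its call (adjusted p by limma from 0.000335 to 0.00778). Unc79, Nalcn and Fam155a were called in 0 of 14 alternatives by limma (lowest adjusted p 0.671, 0.680 and 0.442). Their differences ran from -0.12 to -0.01, from -0.04 to 0.12 and from -0.12 to 0.28 with arrays left out, and the sign turned in 2 alternatives for Nalcn and 3 for Fam155a. The replicate block (pairing by number) cannot move a difference of means, only its p-value. With it the adjusted p by limma was 0.734 for Unc79, 0.839 for Nalcn and 0.694 for Fam155a, so their calls did not change. Over all genes 924 were called higher and 807 lower. With the replicate block these counts were 1341 and 1252, 402 and 356 with the RNA integrity number in the fit, and with arrays left out 383 to 800 and 306 to 687. Members of the 5 lists called higher and lower numbered 11 and 6 with the block and 2 and 1 with RNA integrity. Among genes above the median level they numbered 8 and 4 of 47 tested, or 25.5% against 19.6% of all. With arrays left out they numbered 2 to 8 and 0 to 4, where 10 to 15 and 5 to 8 had an unadjusted p under 0.05. The cause of these shifts was not tested.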
